A study of Homo sapiens with 6 samples.

Results

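The insulin-like growth factor (IGF) axis is described here as 10 genes measured in SW-1990 cells with and without knockdown of PRLR, the prolactin receptor. They were 6 IGF binding proteins (IGFBP2, IGFBP3, IGFBP4, IGFBP5, IGFBP6 and IGFBP7), the receptors IGF1R, IGF2R and INSR, and the adaptor IRS1, out of 19775 genes measured. Every probe set annotated with 1 of these symbols and no other was taken, which gave 30, and the brightest on average across the 6 arrays stood for its gene. The genes were selected on this same contrast, with its measured log2 differences known, among them the lower IGFBP7 signal after knockdown. The adjusted p-values below therefore only place each gene in a fit over all genes, and nothing independent is supported by them.

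SW-1990 is an established pancreatic adenocarcinoma line from a splenic metastasis. Cells of the control group, sh-Ctrl, had received lentivirus with a scrambled short hairpin RNA (shRNA), and cells of the other group, sh-PRLR, lentivirus with an shRNA targeting PRLR. Both groups had been kept in 1 μg/ml puromycin for over 7 days, so selection and viral infection were common to them. Each group had 3 Affymetrix U133 Plus 2.0 arrays, given as biological replicates by the labels, which do not name the hairpin or say whether cells were a pool or 1 clone. Whether the replicates came from separate cultures is not stated, so the p-values measure the spread between these arrays. All levels are deposited log2 values, a difference is the sh-PRLR mean minus the sh-Ctrl mean, errors are SD over 3 arrays, and the number of arrays limits the precision. As RNA was taken from whole cultures, less RNA per cell and fewer cells with the transcript cannot be told apart.

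IGF1 and IGF2 signal through IGF1R, a receptor tyrosine kinase closely related to the insulin receptor INSR, and IRS1 is the docking protein through which both recruit phosphoinositide 3-kinase. IGF2R, also the cation-independent mannose 6-phosphate receptor, takes IGF2 up for breakdown and sorts lysosomal enzymes. The binding proteins are secreted and hold IGFs in the extracellular space, where they can limit or prolong receptor stimulation, and IGFBP7 is a relative with low affinity for IGFs that is common in stroma and vessels.

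Arrays of a group correlated with each other at 0.94 to 0.945 over all probe sets with 1 symbol, and arrays of different groups at 0.937 to 0.94. PRLR itself was lower in all 7 of its probe sets, with an average difference of -0.85 (5.02 ± 0.22 in controls, 4.17 ± 0.22 after knockdown), and the difference in the probe set with the highest mean was -0.23. Both group means of this average lay below the median gene level of 7.23. An exact permutation test of the average gave p = 0.1 (two-sided), below which groups of 3 cannot go. Ductal epithelial markers averaged 11.89 to 11.94 per sh-Ctrl array and 11.46 to 11.98 per sh-PRLR array over 7 genes. Of these 1 was called lower, the cadherin gene CDH1 (difference -0.17, limma adjusted p = 0.0284), and the mucin gene MUC1 differed by -1.30 without passing, at 6.15, 6.38 and 6.46 against 3.18, 6.39 and 5.51. For other cell types, 24 of 26 markers of fibroblasts, endothelium, leukocytes, acinar and islet cells lay below the median gene level of 7.23. The 7 fibroblast markers averaged 4.90 to 5.56 per control array against 4.49 to 4.92 after knockdown, and the 6 endothelial markers 3.95 to 4.23 and 3.57 to 4.64. Of the 26, 0 passed limma with intensity-dependent variance, where 7.66% of all genes passed, or with default settings, where 0.0202% did. At an unadjusted p under 0.05 each fit held 4 of the 26, against 20.3% and 16.2% of all genes. The log2 signal of the 3′ minus the 5′ control probe sets, a sign of RNA quality, was 0.19 to 0.28 for GAPDH in controls and 0.092 to 0.20 after knockdown, and larger for ACTB, at 3.05 to 3.36 and 2.99 to 3.11.

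In sh-PRLR cells 3 binding protein genes fell, IGFBP7, IGFBP2 and IGFBP6, and 2 members rose, IGFBP4 and IRS1. IGFBP7 fell the most, to 39.1% of its sh-Ctrl level on the linear scale, IGFBP2 fell to 71.7% and IGFBP6 to 75.8%, while IGFBP4 was at 133.4% and IRS1 at 118.6%. Thus 5 of 10 members passed an adjusted p of 0.05 by limma with intensity-dependent variance, where 7.66% of all genes passed, 4.32% lower and 3.34% higher. As the list was drawn up with such results known, nothing is read from that count. The same 5 members had groups that did not overlap, as did 25.8% of all genes (14.1% lower and 11.7% higher). With limma's default variance 0 of 10 members passed, and 0.0202% of all genes passed (0.0101% lower and 0.0101% higher). At an unadjusted p under 0.05 that fit held 5 of 10 members and 16.2% of all genes. The median difference was -0.38 over the 6 binding proteins, 0.011 over the receptors and IRS1, and -0.0013 over all genes. Of the 6 binding proteins 4 were lower and 2 higher, called or not. As the members were chosen on these differences, nothing is read from the medians either.

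**Figure D1:**
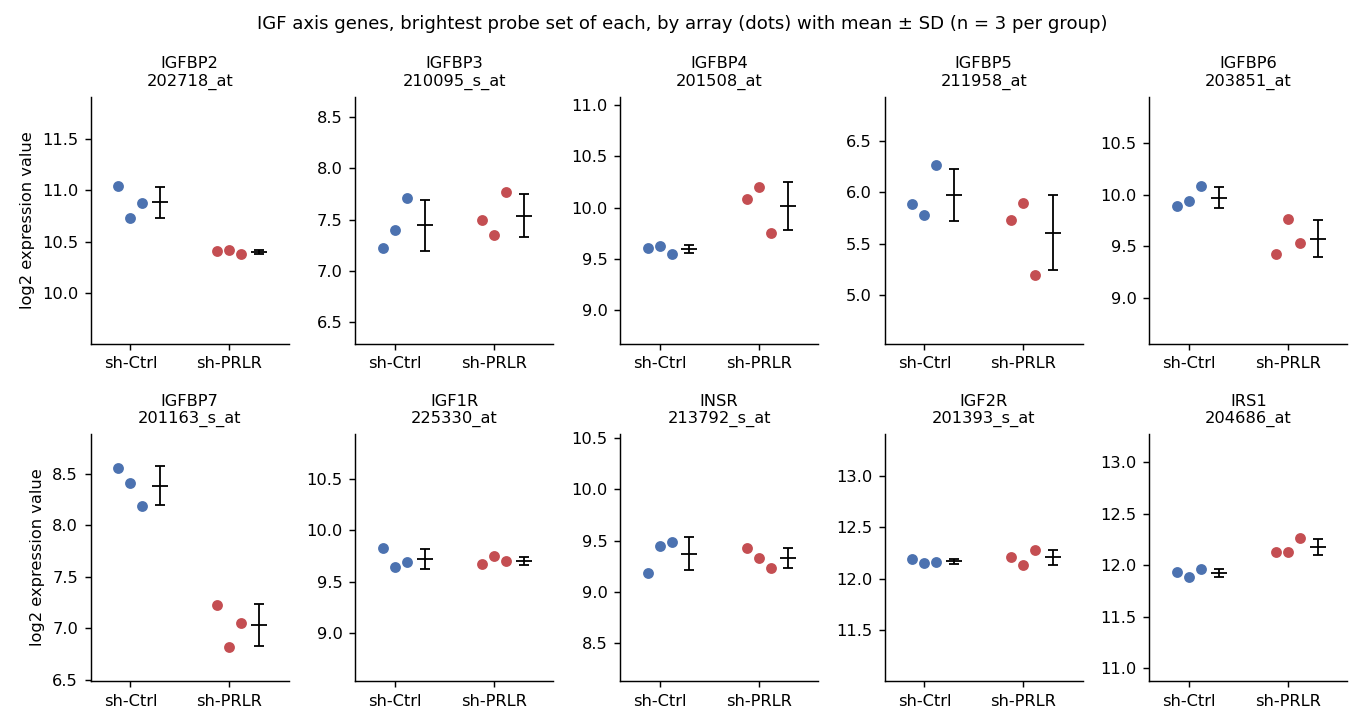
Log2 expression value (vertical axis, the same span of 2.4 log2 units in every panel but a different position) of the 10 genes in sh-Ctrl (blue) and sh-PRLR (red) arrays, with mean ± SD to the right of each group. IGFBP7, IGFBP2 and IGFBP6 sit lower and IGFBP4 and IRS1 higher in all 3 sh-PRLR arrays, and the groups of the other 5 genes overlap.

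IGFBP7 was read by 3 probe sets. The brightest, 201163_s_at, gave 8.56, 8.41 and 8.19 in the sh-Ctrl arrays against 7.23, 6.81 and 7.05 after knockdown. Every sh-PRLR array lay below every sh-Ctrl array, and the gap between the groups was 0.96. The difference was -1.36 (SE 0.17, limma adjusted p = 0.00131 over all genes), which placed IGFBP7 33rd by size among the 854 genes called lower.

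A separate probe set, 201162_at, read 7.70, 7.57 and 7.66 in controls against 6.30, 6.04 and 6.15 after knockdown, again without overlap. Its difference was -1.48 (limma adjusted p = 0.0020 over all probe sets with 1 symbol). Within an array the 2 probe sets were apart by 0.74 ± 0.19 in controls and 0.87 ± 0.08 after knockdown, a shift of 0.12. The groups overlapped in this value (exact two-sided permutation p = 0.4, where 0.1 is the smallest possible). Whether the probe sets differ in response is not shown. The third, 213910_at, lay at a low level, 4.02, 1.35 and 3.15 against 1.80, 1.03 and -0.38, where the groups overlapped and the difference of -2.02 did not pass (limma adjusted p = 0.332 over all probe sets with 1 symbol).

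The IGFBP7 call held in 11 of 13 other settings, including each array left out, with adjusted p from 0.000404 to 0.0669. It was lost with default variance (limma adjusted p = 0.0635) and when its 3 probe sets were averaged (difference -1.62, limma adjusted p = 0.0669). IGFBP7 is common in fibroblasts, and of 7 fibroblast markers 5 were lower and 2 higher in sh-PRLR with a median difference of -0.86. Of the 7, 0 passed limma with either variance. At an unadjusted p under 0.05 there was 1, against 20.3% of all genes with intensity-dependent variance and 16.2% with default variance. Below the median gene level lay 6 of 7. The exception above that level, the collagen gene COL1A1, had means of 7.79 in controls and 7.99 after knockdown. Their part in the IGFBP7 result was not tested.

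The 5 genes whose centred profile over the 6 arrays lay closest to that of IGFBP7, among 10076 others whose higher group mean was above the median gene level, were VSNL1, REEP1, SYTL2, NDP and LGR5. VSNL1, a neuronal calcium sensor, had the smallest Euclidean distance, 0.22 log2 units, with values of 10.98, 10.89 and 10.80 against 9.61, 9.40 and 9.44. LGR5, an R-spondin receptor, had a distance of 0.38 and a difference of -1.29, and the other 3 lay between them. The distance includes the group difference itself, so this likeness is a description.

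IGFBP2, which binds IGF2 and IGF1 and also integrins, was read by 1 probe set. Its values were 11.03, 10.73 and 10.88 in the sh-Ctrl arrays against 10.41, 10.42 and 10.38 after knockdown. The sh-PRLR arrays lay close together (SD 0.02) and all below the sh-Ctrl arrays (SD 0.15). The fall of 0.48 (SE 0.08) had a limma adjusted p = 0.00559 over all genes, and the call was kept in 12 of 13 other settings, the exception being default variance (limma adjusted p = 0.133).

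IGFBP6, a binding protein with preference for IGF2, was also read by 1 probe set. It read 9.89, 9.94 and 10.09 in controls against 9.42, 9.77 and 9.53 after knockdown, where replicate 2 came closest to the controls. The fall of 0.40 (SE 0.10, limma adjusted p = 0.0412 over all genes) lay near the threshold. It passed in 3 of 13 other settings, with adjusted p from 0.0198 to 0.225, and was lost under default variance, quantile normalisation, median centring, the mean of all probe sets, the replicate block (limma adjusted p = 0.0530) and without any array other than sh-PRLR replicate 2.

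IGFBP4, an inhibitory binding protein that is cleaved by the protease PAPPA, moved the other way. It read 9.61, 9.63 and 9.55 in the sh-Ctrl arrays against 10.08, 10.20 and 9.75 after knockdown. The groups did not overlap, but sh-PRLR replicate 3 lay close to the controls, and the gap was 0.12. The rise of 0.42 (SE 0.11, limma adjusted p = 0.0461 over all genes) was 0.54 without that array (limma adjusted p = 0.0105). It passed in 4 of 13 other settings, with adjusted p from 0.0105 to 0.247, and was lost under default variance, median centring, the mean of all probe sets, the omission of _s_at and _x_at probe sets, and without any other single array. In the fit over all probe sets neither IGFBP4 (limma adjusted p = 0.0630) nor IGFBP6 (0.0571) passed.

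IGFBP3, the main carrier of IGFs in serum, showed no detectable change. Its brighter probe set 210095_s_at read 7.22, 7.39 and 7.71 against 7.49, 7.35 and 7.77, which overlap throughout. The difference of 0.10 had a 95% interval from -0.33 to 0.52 (limma adjusted p = 0.842 over all genes). In the dimmer 212143_s_at, sh-PRLR replicate 3 stood apart, with 6.44, 6.80 and 4.64 against 5.72, 6.01 and 5.96, a difference of 0.066.

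IGFBP5, which binds to extracellular matrix, had 6 probe sets, all below the median gene level. The brightest, 211958_at, read 5.88, 5.78 and 6.26 against 5.73, 5.90 and 5.20, and the difference of -0.37 had a 95% interval from -1.16 to 0.43 (limma adjusted p = 0.644 over all genes). The groups of 1555997_s_at did not overlap, at 2.18, 3.32 and 1.90 against 1.14, 0.95 and 0.94, but the difference of -1.46 did not pass (limma adjusted p = 0.406 over all probe sets with 1 symbol). For the other 4 the groups overlapped, and differences ranged from -1.33 to 0.31. A change of IGFBP5 in either direction was not detectable at these levels.

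The 150 bases before the annotated start are shown for IGFBP2 and IGFBP6, which fell, and for IGFBP4 and IRS1, which rose, so that genes called in opposite directions can be set side by side. The sequences are from RefSeq (GRCh38.p14), written 5′ to 3′ on the gene's strand. Capitals mark matches, on either strand, to any of 5 short motifs named with their shares after the sequences, and CCGCCC in IGFBP4 is the GC box read on the other strand.
IGFBP2, chr2:216633270-216633419, plus strand: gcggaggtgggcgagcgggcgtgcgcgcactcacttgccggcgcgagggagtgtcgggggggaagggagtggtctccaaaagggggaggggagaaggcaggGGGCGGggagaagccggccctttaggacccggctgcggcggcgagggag
IGFBP6, chr12:53097517-53097666, plus strand: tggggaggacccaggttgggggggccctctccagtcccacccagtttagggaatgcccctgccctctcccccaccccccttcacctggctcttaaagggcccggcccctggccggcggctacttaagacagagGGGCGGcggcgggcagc
IGFBP4, chr17:40443300-40443449, plus strand: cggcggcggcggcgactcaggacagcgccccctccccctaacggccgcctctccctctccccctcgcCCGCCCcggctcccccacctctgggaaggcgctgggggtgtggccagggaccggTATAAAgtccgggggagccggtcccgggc
IRS1, chr2:226799821-226799970, minus strand: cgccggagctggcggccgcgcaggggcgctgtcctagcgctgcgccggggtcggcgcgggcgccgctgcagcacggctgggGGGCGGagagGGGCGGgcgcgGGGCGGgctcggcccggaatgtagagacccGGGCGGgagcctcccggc

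The promoter table held 9 of the 10 members, with 3 alternative starts for IGFBP2, of which the one richest in CpG is shown, and 1 for each other gene. IGFBP7 was not in it. Motifs were searched on both strands in the whole window of 300 bases, 250 before and 50 after the start. GGGCGG, the GC box, was present in 8 of 9 members, all but IGFBP5. Counted by window it was in 9 of 11 member windows and in 45% of all 35116 windows. TATAAA, the TATA box, was found in IGFBP4 alone among the members, at position -29, and in 11.5% of all windows. GTAAACA, a forkhead element, was found in IGFBP6 alone among them, at -186 and thus outside the stretch printed, against 3.42% of windows. TTCNNNGAA, the element bound by STAT5, the factor activated by prolactin receptor signalling, was in 0 of 9 members and 7.66% of windows, and TGANTCA, the AP-1 element, in 0 of 9 and 7.71%. These letters were thus absent from this short window only. IRS1 was the richest of the 4 in GC boxes, with 4 matches and 79.3% G and C, against 61.7% in IGFBP6 and a median of 58.7% over all windows.

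IRS1, the adaptor, was read by 3 probe sets. The brightest, 204686_at, gave 11.93, 11.89 and 11.97 in the sh-Ctrl arrays against 12.13, 12.13 and 12.26 after knockdown. All sh-PRLR arrays were above all controls, with a gap of 0.16. The rise of 0.25 (SE 0.06, limma adjusted p = 0.0231 over all genes) passed in 6 of 13 other settings, with adjusted p from 0.0111 to 0.335. It was lost under default variance, median centring and without any 1 sh-Ctrl array or sh-PRLR replicate 3, and averaging the 3 probe sets gave 0.15 (limma adjusted p = 0.335). Of the other probe sets, 242979_at read 9.38, 8.98 and 8.87 against 9.30, 9.46 and 9.34, with 1 control array among the sh-PRLR values. It was higher by 0.29, with a 95% interval from 0.0028 to 0.58, and did not pass (limma adjusted p = 0.289 over all probe sets with 1 symbol). The remaining 238933_at differed by -0.079, with a 95% interval from -0.33 to 0.18. Within an array 204686_at exceeded 238933_at by 3.17, 3.12 and 3.05 in controls against 3.41, 3.54 and 3.37 after knockdown. This shift of 0.33 was without overlap (exact two-sided permutation p = 0.1, the smallest possible here), and the pair was chosen after its values were seen. The IRS1 call thus rests on its brightest probe set, as 242979_at had the same direction without passing and 238933_at had the opposite sign.

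For IGF1R, the main signalling receptor for IGFs, the 2 brightest probe sets gave different values. In 225330_at, which stands for the gene, values were 9.83, 9.64 and 9.70 in the sh-Ctrl arrays against 9.67, 9.75 and 9.70 after knockdown. The groups overlapped fully, and the difference of -0.017 had a 95% interval from -0.20 to 0.17 (limma adjusted p = 0.945 over all genes). In 203627_at the values were 8.44, 8.35 and 8.31 against 7.75, 7.78 and 8.0, with every sh-PRLR array lower. That difference of -0.52 passed over all probe sets (limma adjusted p = 0.0472), but in 0 of 11 other settings, with adjusted p from 0.0519 to 0.199.

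Chosen after their values were seen, the 2 IGF1R probe sets were set against each other within each array. The first exceeded the second by 1.40, 1.29 and 1.38 in sh-Ctrl and by 1.92, 1.96 and 1.70 in sh-PRLR. The gap was wider by 0.51 in sh-PRLR, without overlap (exact two-sided permutation p = 0.1, the smallest possible here). The remaining 3 IGF1R probe sets, 203628_at, 208441_at and 243358_at, read between 2.70 and 6.05 in sh-Ctrl, overlapped between groups and were higher in sh-PRLR by 0.33, 0.21 and 0.78 without passing. With single arrays left out these differences became larger or smaller, and none changed sign. They ranged from 0.019 to 0.67 for 203628_at, from 0.080 to 0.36 for 208441_at and from 0.081 to 1.32 for 243358_at.

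For INSR, the insulin receptor, 1 probe set other than the brightest rose. Its representative 213792_s_at read 9.19, 9.45 and 9.49 against 9.43, 9.33 and 9.23, a difference of -0.041 with a 95% interval from -0.27 to 0.19 (limma adjusted p = 0.882 over all genes). In 226216_at values were 8.54, 8.74 and 8.83 in the sh-Ctrl arrays against 9.21, 9.13 and 9.29 after knockdown, with every sh-PRLR array higher. This rise of 0.51 passed over all probe sets (limma adjusted p = 0.0263) and in 4 of 11 other settings, with adjusted p from 0.0227 to 0.221. Where probe sets named _s_at or _x_at were left out, 226216_at represented INSR, and the gene then passed, at 0.51 (limma adjusted p = 0.0218).

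Within an array 226216_at minus 213792_s_at was -0.64, -0.70 and -0.65 in controls against -0.22, -0.20 and 0.055 after knockdown. The shift of 0.55 was again without overlap (exact two-sided permutation p = 0.1), and this pair too was chosen after its values were seen. The other 3 INSR probe sets overlapped between groups, with differences from -0.040 to 0.16. Where in the IGF1R and INSR transcripts these probe sets lie was not examined here.

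**Figure D2:**
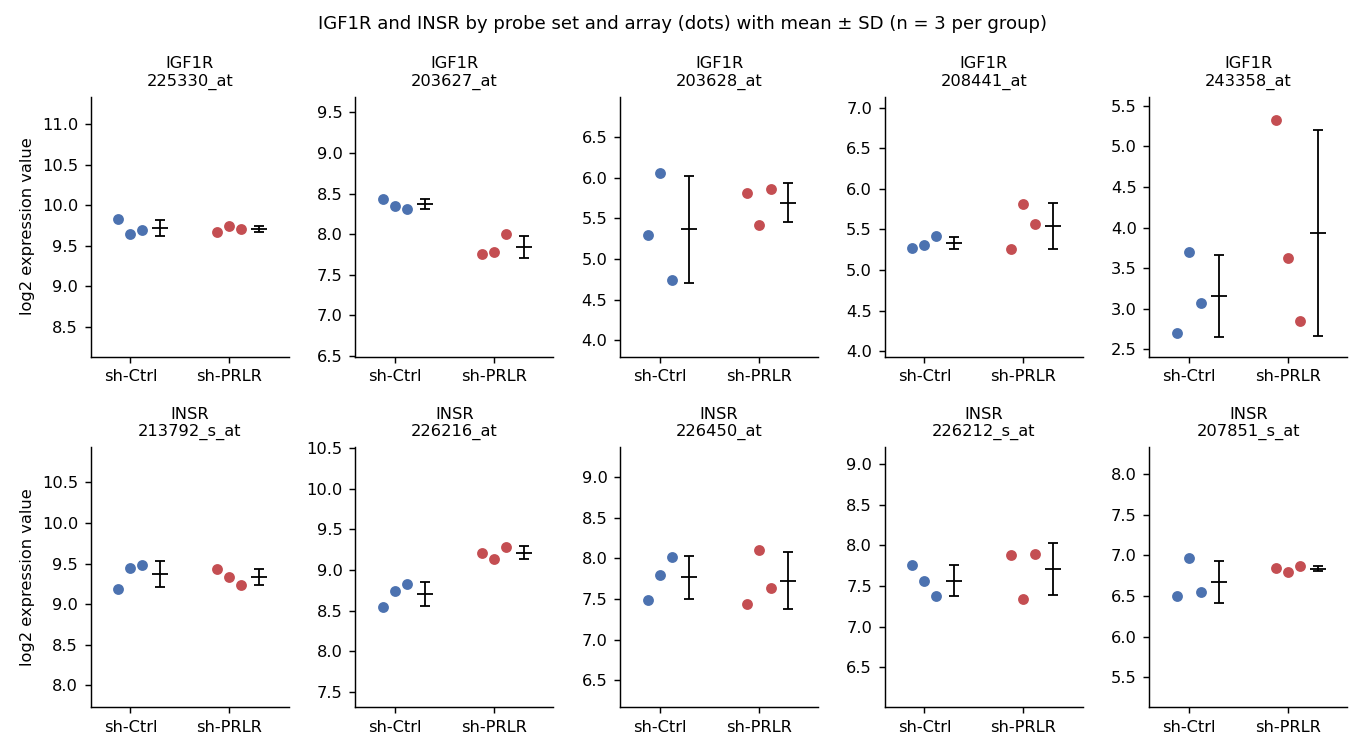
Log2 expression value (vertical axis, a span of 3.2 log2 units in each panel, placed differently) of the 5 probe sets each of IGF1R (top) and INSR (bottom) in sh-Ctrl (blue) and sh-PRLR (red) arrays, with mean ± SD. Only 203627_at of IGF1R (lower) and 226216_at of INSR (higher) have groups that do not overlap.

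IGF2R was at nearly the same level in both groups in its brightest probe set. The values of 201393_s_at were 12.20, 12.15 and 12.16 in the sh-Ctrl arrays against 12.21, 12.13 and 12.28 after knockdown. The difference of 0.038 had a 95% interval from -0.08 to 0.16 (limma adjusted p = 0.762 over all genes). In 201392_s_at the groups were apart only beyond the second decimal, at 10.68, 10.78 and 10.89 against 11.06, 10.97 and 10.89, and the difference of 0.19 did not pass (limma adjusted p = 0.212 over all probe sets with 1 symbol). The third, 1569052_at, differed by 0.072.

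Over all 30 probe sets 6 passed limma with adjustment over all probe sets with 1 symbol, of which 4.67% passed, 2.5% lower and 2.17% higher. They were the 2 brighter of the 3 for IGFBP7, that of IGFBP2, the brightest of IRS1, 203627_at and 226216_at. Groups did not overlap for 10 of the 30, and for 22.6% of all probe sets. With default variance 0 of 30 and 0 of all 41091 passed, while 9 of 30 and 12.7% of all had an unadjusted p under 0.05. Of the 30, 14 lay below the median gene level, among them all those of IGFBP5.

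**Figure D3:**
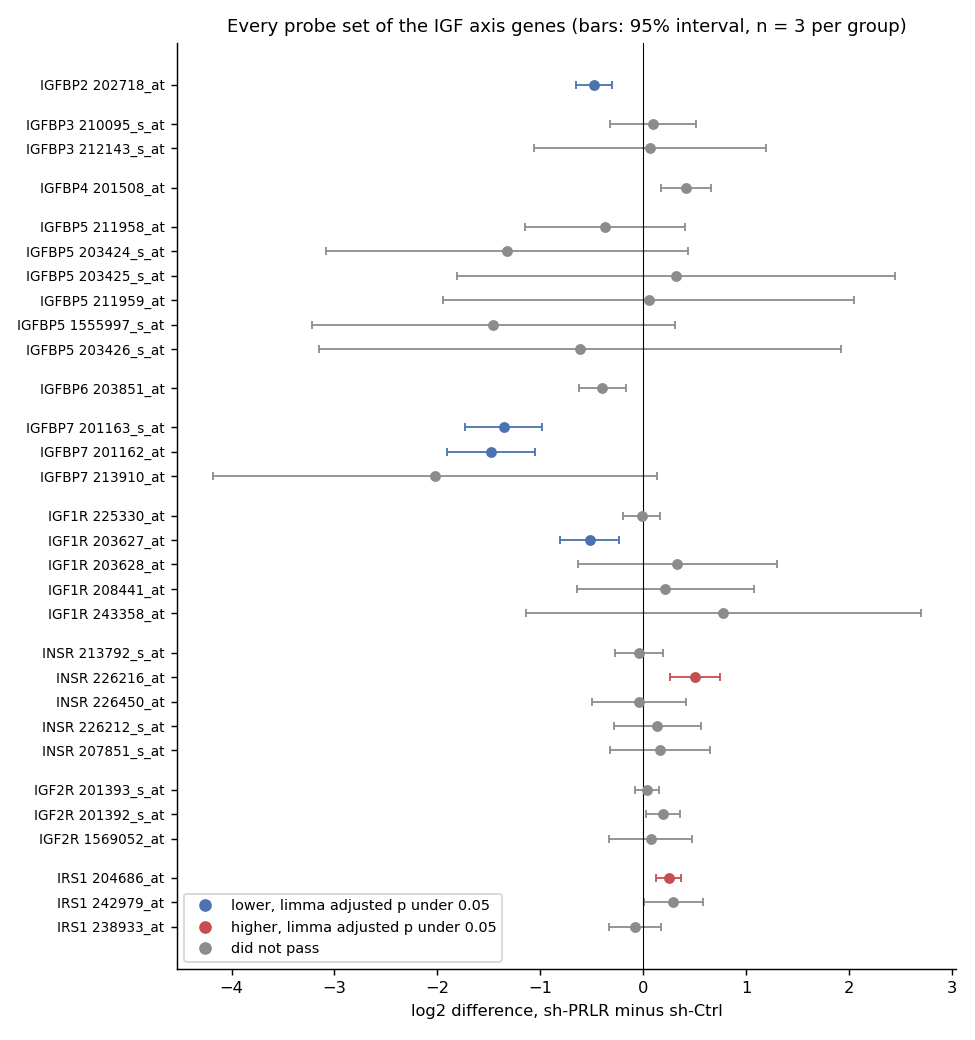
Difference between groups (horizontal axis, log2, sh-PRLR minus sh-Ctrl) of all 30 probe sets, ordered by gene and brightness, with 95% intervals from limma and n = 3 arrays per group. Blue and red mark the 4 lower and 2 higher probe sets that passed, and grey the others, among them the wide intervals of the dim IGFBP5 probe sets.

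The wider pathway was described with 8 lists of 93 genes, of which 87 were analysed here. Of these 87, 7 rose, where 3.34% of all genes were called higher, and 1 fell, where 4.32% were called lower. Together 8 of 87 passed, against 7.66% of all genes. The median difference of the 87 was 0.0049 against -0.0013 over all genes. Upstream of the receptors, 0 of 5 ligand and other binding protein genes passed limma with either variance, 0 had an unadjusted p under 0.05, and all 5 lay below the median gene level. The binding protein IGFBP1 was among these, at 1.63, 4.47 and 3.97 in controls against 5.64, 4.75 and 4.52 after knockdown. The ligand IGF1 had a mean of 5.91 in sh-Ctrl and 6.45 in sh-PRLR (limma adjusted p = 0.454). The ligand IGF2 was not among these 5, so its level is not described here.

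Among 12 proteases of binding proteins and their inhibitors, with a median difference of 0.23, PLAU rose. PLAU encodes urokinase, which generates plasmin, a protease that cleaves several binding proteins. It read 6.94, 7.38 and 7.28 in the sh-Ctrl arrays against 8.09, 8.33 and 8.35 after knockdown, a rise of 1.06 (limma adjusted p = 0.00446), kept in 10 of 12 other settings. PAPPA, the protease of IGFBP4, lay at a low level in both groups, with means of 4.90 and 4.36. Of 11 genes that share the IGF binding protein domain (median difference -0.044), CCN3, a matricellular protein, rose by 0.49 (limma adjusted p = 0.0306), a call kept in 4 of 13 other settings. Only 1 of the 2 CCN3 probe sets had this sign, and averaging them gave 0.20. In the same list CCN1 differed by -0.044 and CCN2 by -0.046 without passing. The lowest was CCN5, below the median gene level at means of 4.22 and 2.35. Its difference of -1.87 did not pass either (limma adjusted p = 0.217). Of the 11 genes 6 were lower and 5 higher, and for 5 the groups did not overlap, against 25.8% of all genes.

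Downstream of the receptors, 2 of 15 adaptors and regulators rose, where 3.34% of all genes were called higher, and their median difference was 0.0086. SHC1, the adaptor that links receptor tyrosine kinases to RAS, read 11.67, 11.73 and 11.60 against 12.14, 12.30 and 12.20, a rise of 0.55 (limma adjusted p = 0.000611) that was kept in 11 of 12 other settings. NEDD4, a ubiquitin ligase, rose by 0.29 (limma adjusted p = 0.0423) and was kept in 2 of 13. IRS2, the paralog of IRS1, had means of 12.46 and 12.42 (limma adjusted p = 0.765), so that the rise of IRS1 was not seen in it, although the difference between the genes was not tested.

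Of 16 genes of the PI3K, AKT and mTOR cascade 1 rose, RICTOR, a core subunit of mTOR complex 2, by 0.24 (limma adjusted p = 0.0351, kept in 3 of 13 other settings). By comparison 3.34% of all genes were called higher. The median of that list was -0.093, and 11 of 16 differences were below 0, none of them passing, as were 9913 of all 19775. Of these 16 genes, 7 had an unadjusted p under 0.05 with intensity-dependent variance, against 20.3% of all genes. With default variance 4 had, against 16.2%. Among 12 FOXO factors and FOXO targets, CCNG2, cyclin G2, rose and SESN1, a sestrin that restrains mTOR complex 1, fell. CCNG2 read 12.01, 12.38 and 12.21 in controls against 12.76, 13.00 and 13.05 after knockdown, a rise of 0.74 (limma adjusted p = 0.00163). SESN1 read 10.23, 10.23 and 10.35 against 9.95, 9.83 and 9.86, a fall of 0.39 (limma adjusted p = 0.0108), lost under default variance and median centring. The CCNG2 call was kept in 12 of 13 other settings, and the list median was 0.063. Of the 12 FOXO genes 6 had an unadjusted p under 0.05 with either variance. As the lists were chosen with results known, nothing is read from these counts.

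Of 3 IGF2 mRNA-binding proteins IGF2BP3 rose by 0.19 (limma adjusted p = 0.0305), kept in 2 of 13 other settings, and its sign turned in 2, reaching -1.25, when all probe sets were averaged or _s_at and _x_at probe sets left out. In mannose 6-phosphate sorting, the other function of IGF2R, 0 of 13 genes passed limma with either variance, while 4 had an unadjusted p under 0.05 with intensity-dependent variance, as had 20.3% of all genes, and 1 with default variance, where 16.2% had. The median there was -0.037.

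**Figure D4:**
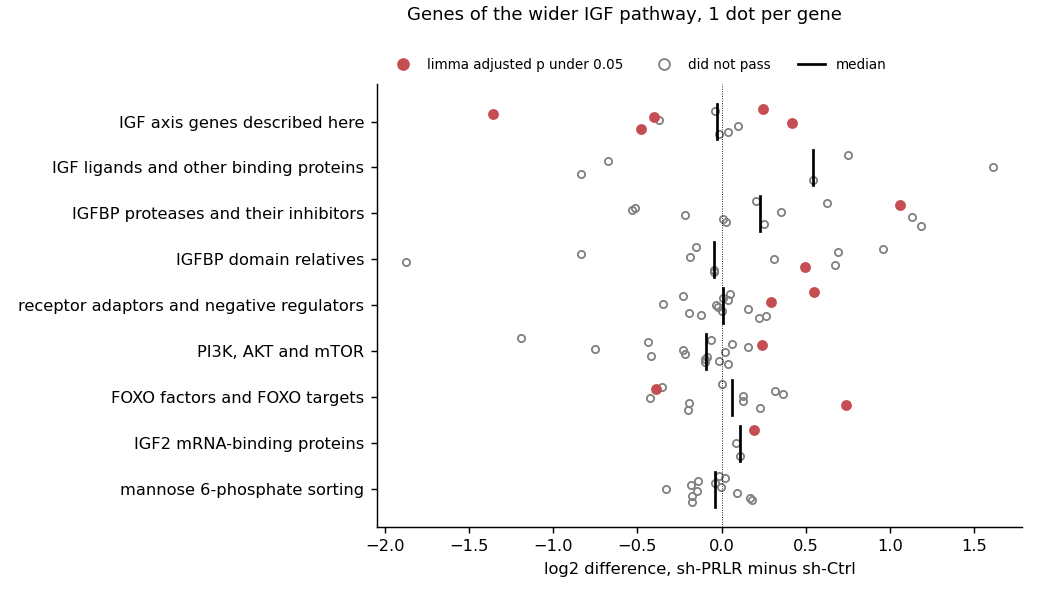
Difference between groups (horizontal axis, log2, sh-PRLR minus sh-Ctrl) of the 10 IGF axis genes (top row) and of 8 lists of the wider pathway, with 1 dot per gene, filled where limma's adjusted p was under 0.05, and a bar at the median of each list. IGFBP7 at -1.36 is the lowest filled dot, and PLAU at 1.06 the highest.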

How the data were processed

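The deposited table holds log2 values for each probe set on each of 6 arrays, per the file headers and the values. The tools MAS5, RMA and affy appear, without role or version, per the submitters' processing notes. On the linear scale the mean with 2% trimmed was 500.0 for every array, so the authors' values were taken as already scaled and left as they were. Detection calls were not used here, and values ran from -4.3 to 15.53.

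Of 54675 probe sets, the 41091 with a single symbol in the platform annotation that were no controls entered the tests, and 19775 genes were each read from the brightest of theirs. limma 3.58.1 (R 4.3.3) fitted the groups with eBayes, trend and robust on (intensity-dependent variance). Tests were two-sided, with Benjamini-Hochberg adjustment over every gene or every probe set and a threshold of 0.05. This fit called 1514 genes and default eBayes 4, and it was chosen with both counts known. The members and lists were likewise chosen with earlier results of these data known. Single values were compared by exact permutation (scipy 1.17.1).

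Named were all members and their probe sets, up to 4 called genes with the smallest p from each pathway list, and the 5 profiles nearest to IGFBP7. IGF1, IGFBP1, PAPPA, CCN1, CCN2, CCN5, IRS2, COL1A1 and MUC1 were added after their values were seen. Other settings were default variance, quantile normalisation, median centring, omission of the dimmest 40% of genes, averaging a gene's probe sets, omission of _x_at and _s_at probe sets, the replicate number as a block, and omission of each array. Figures were drawn with matplotlib 3.10.9.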

Additional observations from a re-analysis of the deposited data

How the results depend on the processing

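Precision was limited by 3 arrays per group, and most of all for dim probe sets such as those of IGFBP5. Which genes were called depended on the variance model. With default variance 0 members were lower and 0 higher (instead of 3 and 2), 0 member probe sets lower and 0 higher (4 and 2), 0 pathway genes lower and 0 higher (1 and 7), and 2 of all genes lower and 2 higher (854 and 660). Median centring left 0 members and 0 member probe sets higher, 0 pathway genes lower and 3 higher, and 375 of all genes lower and 214 higher. The share of higher genes among all calls was then 36.3%, against 43.6%. Averaging probe sets left 1 member lower and 0 higher, 2 pathway genes higher, and 334 of all genes lower and 275 higher. Without _x_at and _s_at probe sets there were 2 member probe sets lower, 0 pathway genes lower and 4 higher, and 567 of all genes lower. Without the dimmest 40% of genes 4 pathway genes were lower. With each array left out in turn, members numbered 2 to 3 lower and 0 to 1 higher, member probe sets 3 to 4 lower and 0 to 1 higher, pathway genes 1 to 3 lower and 3 to 6 higher, and all genes 369 to 799 lower and 296 to 523 higher. The 1514 calls over all genes became 665 (sh-Ctrl replicate 2) to 948 without any 1 array other than sh-PRLR replicate 1, and 1322 without that. The cause of these shifts was not tested.

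The replicate numbers were not taken as a pairing, since deviations of same-numbered arrays correlated at -0.056, 0.059 and -0.1. With the replicate block 2 members were lower and 2 higher, 3 member probe sets lower and 1 higher, 1 pathway gene lower and 3 higher, and 645 of all genes lower and 445 higher.

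The directions of IGFBP7, IGFBP2, IGFBP6, IGFBP4 and IRS1 held in every setting run. Among members, signs turned only for differences that did not pass in the reported fit. Quantile normalisation gave 0.0047 for IGF1R (225330_at) and -0.034 for 211959_at of IGFBP5, averaging probe sets gave 0.16 for IGF1R and 0.15 for INSR, and INSR was 0.51 without _x_at and _s_at probe sets. With arrays left out, IGFBP3 ranged from -0.021 to 0.23 (210095_s_at) and from -0.35 to 0.73 (212143_s_at), IGF1R from -0.058 to 0.038, INSR from -0.13 to 0.016 (213792_s_at) and from -0.23 to 0.11 (226450_at), 1569052_at of IGF2R from -0.0034 to 0.20, and IGFBP5 from -0.58 to 1.17 (203425_s_at), -0.54 to 0.60 (211959_at) and -1.33 to 0.49 (203426_s_at). The PRLR average of -0.85 was -0.23 in the probe set with the highest mean, and -0.96 to -0.73 with arrays left out.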
